A study of Sus scrofa with 13 samples.

Results

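The genes of the urea cycle and of ammonia handling in the liver that were chosen by name are NAGS, CPS1, OTC, ASS1, ASL, ARG1, SLC25A15, GLS2 and GLUL. Of these 9 genes, 8 were found by symbol among the 35670 genes of the count table, and all 8 had enough counts to be tested. GLUL had no entry under its symbol and is not analysed here. RNA was sequenced from 13 pig liver biopsies in 4 groups. The baseline group (n = 2) was sampled before ischemia and received no cells. Ischemic controls (n = 3) had 45 min of warm ischemia with clamps on the hepatic artery, the portal vein and the hepatic veins, followed by 6 h of reperfusion, and received no cells. The arterial infusion group (n = 4) was clamped and reperfused in the same way, and was given human bone marrow-derived mesenchymal stromal cells (BM-MSCs) through the hepatic artery after the clamps were released, at 3 M cells per kg body weight (M standing for mega). The portal infusion group (n = 4) received the same dose through the portal vein. All animals were purpose-bred female Yorkshire pigs under anesthesia, whose food had been replaced by glucose water before surgery. The cells were human and the recipients were pigs, and the sample labels do not state whether a baseline and a reperfused biopsy came from the same animal. For the ischemic control, arterial and portal samples, the paper states that each point of its plot stands for a single pig. The spread within these groups thus includes differences between animals. For the baseline group this is not stated, and its spread may be technical. P-values measure the spread between these biopsies, and against baseline they take no account of a shared animal.

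Ammonia from amino acid breakdown is detoxified in periportal hepatocytes, at the inflow side of the liver lobule, by the urea cycle. NAGS, CPS1 and OTC act in the mitochondrial matrix, ASS1, ASL and ARG1 act in the cytosol, and SLC25A15 carries ornithine and citrulline between both compartments. Ammonia that escapes the cycle is captured as glutamine by GLUL in a narrow ring of pericentral hepatocytes, at the outflow side, and GLS2 releases ammonia from glutamine in periportal cells.

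Values for the genes are normalized counts, which are read counts divided by a size factor of the library, and they are compared between biopsies and not between genes. Total counts per library lay between 18975413 and 35949178 with a median of 30260803. The raw counts of the 8 genes lay between 663 and 95987, so that counting error was small beside the spread between biopsies. Together the 8 genes held 0.398% to 0.692% of the counts of a library. The biopsies control 2, arterial 1, portal 1 and portal 4 stood apart from the rest on the first principal component, which held 62.8% of the variance of the 500 most variable genes. These 4 biopsies also had the lowest summed level of 10 hepatocyte markers (44024 to 78291 CPM, counts scaled to a library total of 1 M, against 116331 to 183934 in the other 9), and none of these markers was at 0 in any biopsy. The 10 markers did not move together. Among the 11 reperfused biopsies, these 4 held ranks 8 to 11 for TF, AHSG, APOB, FGB and FGG. They held ranks 1 to 4 for APOA1 and ranks 1, 2, 5 and 6 for TTR, and the other markers were mixed. In a bulk biopsy, fewer hepatocytes, less RNA per hepatocyte and changes of single genes cannot be told apart. Their part in the results on the urea cycle genes was not tested. The comparisons were also made without these 4 biopsies.

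The first comparison was between ischemic controls and baseline, for the effect of ischemia and reperfusion without cells. ARG1, ASS1 and GLS2 were higher in all 3 controls than in both baseline biopsies, NAGS and OTC were lower in all 3, and CPS1, ASL and SLC25A15 overlapped. Such a separation of 3 against 2 biopsies in the higher direction was seen in 14.8% of all 16481 tested genes, and in the lower direction in 16.3%. Differences were tested with the quasi-likelihood method of edgeR, and p-values were adjusted over all tested genes after Benjamini and Hochberg, with a threshold of 0.05. None of the 8 genes passed it, at adjusted p-values of 0.978 to 1.00 in edgeR, and neither did any of the 16481 genes. None had an unadjusted p below 0.05 either, as 4.37% of all genes did. DESeq2 called 0 of the 8 genes after adjustment, both over all libraries and over the 5 compared, and gave 2 of 8 an unadjusted p below 0.05 in each (ASS1 and ARG1 over all libraries, 4.67% of all genes; ASL and ARG1 over the 5 libraries, 8.64%). The median log2 fold change of the 8 genes was 0.34, beside 0.00 over all tested genes. An exact permutation test of 3 against 2 biopsies cannot give a two-sided p below 0.2.

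The summed levels of neutrophil and macrophage markers were also higher in all 3 controls than in both baseline biopsies. The summed level of the neutrophil markers, of which 6 of 9 listed were found, was 27.3 and 26.2 CPM at baseline, against 45.3, 385 and 149.5 CPM in the controls. Of the 5 of them that were tested, 3 had an unadjusted edgeR p below 0.05 in the higher direction, beside 3.16% of all genes, and the median log2 fold change was 3.45, or 2.07 without the 4 biopsies that stood apart. They were S100A12 (adjusted p = 0.978 in edgeR and 0.00171 in DESeq2 over the 5 libraries), S100A8 (0.978 and 0.00189) and RETN (0.978 and 2.64e-05). The summed level of 8 macrophage markers was 1917 and 1181 CPM at baseline, against 2041, 3752 and 2446 CPM in the controls. This sum weighs abundant genes such as CD14 the most (normalized count 18316 ± 1584 at baseline, 41549 ± 31479 in the controls, SD). Of the 8, 6 had a log2 fold change above 0 and 2 below, with a median of 0.69, or 0.39 without the 4 biopsies. The complement genes C1QA and C1QB, 2 of the 8, had an unadjusted edgeR p below 0.05 in the higher direction, beside 3.16% of all genes (adjusted p = 0.978 for both, edgeR). The 10 hepatocyte markers had a median log2 fold change of -0.60, or -0.42 without the 4 biopsies, with 0 of 10 below an unadjusted p of 0.05 in edgeR and an adjusted p above the threshold for all. Of these 10, 7 lay below 0 and 3 above. APOA1 (1.24) was higher in all 3 controls than in both baseline biopsies, TF (-1.46) and AHSG (-0.92) were lower, and TTR (0.84) overlapped. Such separations were seen in 14.8% of all genes in the higher and 16.3% in the lower direction. No macrophage or hepatocyte marker was at 0 in any of these 5 biopsies, and 1 neutrophil marker was at 0 in baseline 2 and in control 2. Their part in the levels of the urea cycle genes was not tested.

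**Figure D1:**
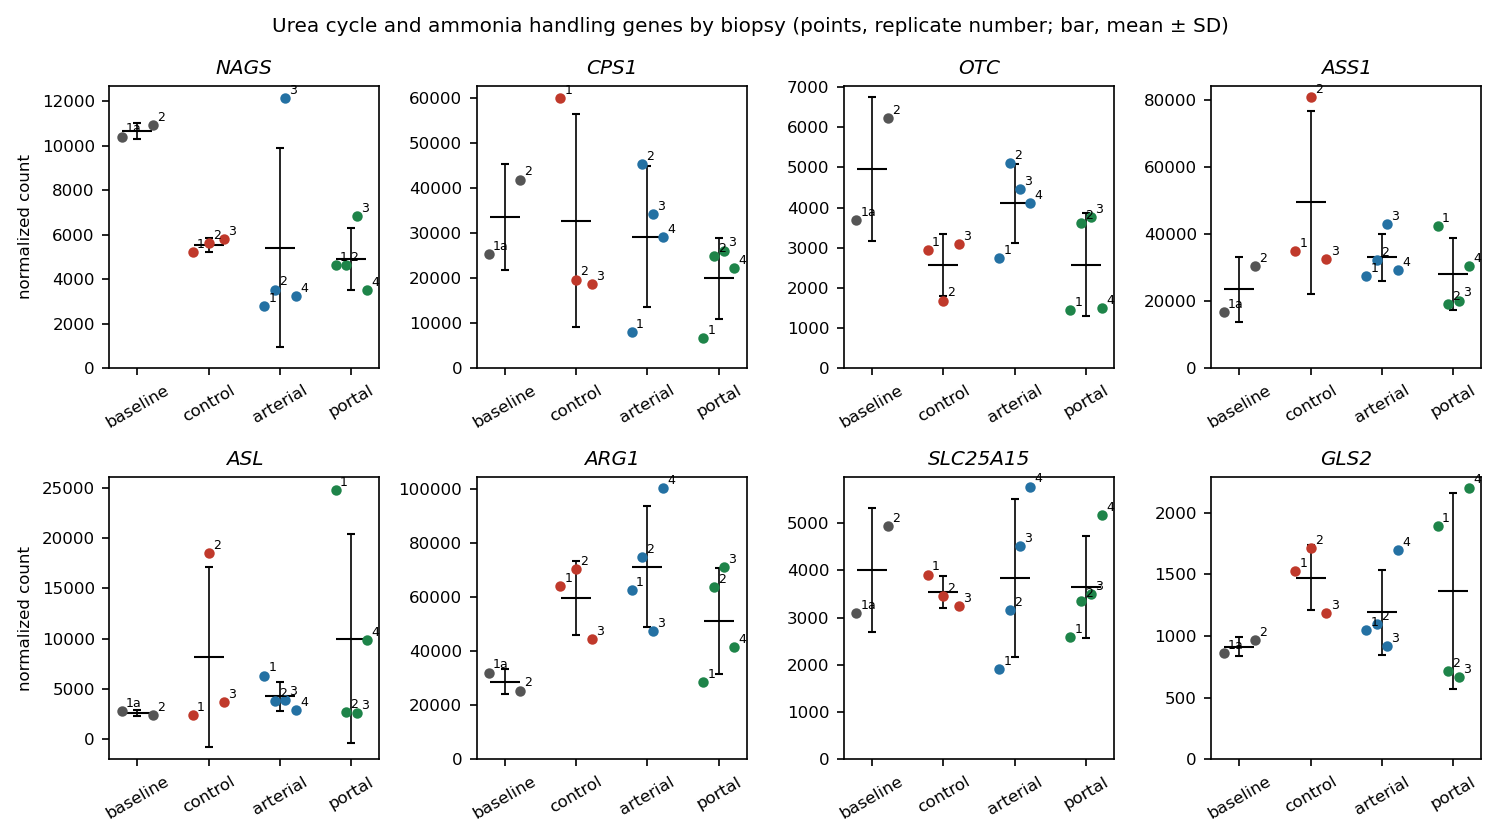
Normalized counts of the 8 genes (vertical axis, a separate linear scale for each gene) in each biopsy of the 4 groups (horizontal axis), with replicate numbers beside the points and the mean ± SD of the group as bars. NAGS lay at 10415 and 10926 in the baseline biopsies and at 6833 or less in all reperfused biopsies but arterial 3, while ASL lay far above its group in control 2, portal 1 and portal 4.

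NAGS makes N-acetylglutamate, the obligatory activator of CPS1 (ENSSSCG00000024179, chromosome 12, 19170398 to 19173968, here and below in the RefSeq annotation of Sscrofa11.1). Its normalized count was 10415 and 10926 at baseline, whereas the controls had 5206, 5628 and 5790.1. The 3 controls lay close together at about the same distance below baseline, at 5541 ± 301 (SD, n = 3) against 10670.4 ± 361 (SD, n = 2). The log2 fold change was -0.95 (SE 0.59, unadjusted p = 0.129, Benjamini-Hochberg adjusted p = 0.978, edgeR), with an SE that was drawn from all 13 biopsies and so holds the wide arterial group. The values after infusion were 2797, 3525, 12129 and 3228 in the arterial group. They were 4623, 4617, 6833 and 3509.9 in the portal group. All infused biopsies but arterial 3, the highest of the 13, lay below both baseline biopsies.

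CPS1, which condenses ammonia and bicarbonate to carbamoyl phosphate in the first committed step of the cycle (ENSSSCG00000016159, chromosome 15, 113210038 to 113339086), had normalized counts of 25301 and 41894 at baseline. The controls had 60062, 19670.1 and 18592, so that control 1 was the highest of all 13 biopsies and the other 2 controls lay below baseline. The log2 fold change of controls against baseline was -0.01 (SE 0.76, 95% interval -1.63 to 1.62), and it was -0.84 without control 1 and 0.36 without baseline 2. The interval includes differences of more than 1 log2 unit in either direction. The arterial group had 7988, 45423, 34182 and 29118, and the portal group had 6732, 24914, 26109 and 22139. Portal 1 and arterial 1 were the lowest of the 13 biopsies.

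OTC, which joins carbamoyl phosphate to ornithine to make citrulline (ENSSSCG00000012236, chromosome X, 34322398 to 34391711), had normalized counts of 3682 and 6229 at baseline, against 2942, 1679 and 3098 in the controls. All controls lay below both baseline biopsies, with a log2 fold change of -0.93 (SE 0.54, unadjusted p = 0.105, Benjamini-Hochberg adjusted p = 0.978, edgeR), and it ranged from -1.25 to -0.55 when single biopsies were left out. The arterial group had 2739, 5098, 4456 and 4113. The portal group had 1449.9, 3614, 3758 and 1491, where portal 1 and portal 4 were the lowest of the 13 biopsies.

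ASS1, which condenses citrulline with aspartate (ENSSSCG00000005701, chromosome 1, 270531434 to 270586364), had normalized counts of 16662 and 30429 at baseline, against 34816, 80881 and 32636 in the controls. Each control lay above both baseline biopsies, and control 2 was the highest of the 13. The log2 fold change was 1.05 (SE 0.54, unadjusted p = 0.0691, Benjamini-Hochberg adjusted p = 0.978, edgeR), and it was 0.55 without control 2 and 0.54 without all 4 biopsies that stood apart. The arterial group had 27562, 32347, 43017 and 29125, and the portal group had 42318, 19205, 20141 and 30542. Both infused groups overlapped with baseline and with the controls.

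ASL, which splits argininosuccinate into arginine and fumarate (ENSSSCG00000007738, chromosome 3, 16637481 to 16646869), was near-equal in the baseline biopsies at 2774 and 2370.4. The controls had 2395, 18488 and 3661, so that the group mean of 8181 ± 8948 (SD, n = 3) was set by control 2. The log2 fold change against baseline was 1.62 (SE 0.94, unadjusted p = 0.108, Benjamini-Hochberg adjusted p = 0.978, edgeR), and without control 2 it was 0.26. The arterial group had 6309, 3806, 3918 and 2916. The portal group had 24785, 2709, 2606 and 9865, with portal 1 the highest of the 13 biopsies.

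ARG1, which hydrolyses arginine to urea and ornithine (ENSSSCG00000004195, chromosome 1, 32006035 to 32028983), had normalized counts of 32197 and 25486 at baseline, against 64251, 70592 and 44543 in the controls. The controls lay above both baseline biopsies, at 59795 ± 13584 (SD, n = 3) against 28842 ± 4746 (SD, n = 2). The log2 fold change was 1.04 (SE 0.54, unadjusted p = 0.0745, Benjamini-Hochberg adjusted p = 0.978, edgeR), and it stayed between 0.84 and 1.24 when single biopsies were left out. Without the 4 biopsies that stood apart it was 0.93, with an unadjusted p = 0.0320 and an adjusted p = 0.408 in edgeR, where 5.74% of all genes had an unadjusted p below 0.05 in the higher direction. The arterial group had 62770, 74917, 47485 and 100582, and the portal group had 28751, 63865, 71212 and 41467. All infused biopsies but portal 1 lay above both baseline biopsies.

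SLC25A15, the mitochondrial ornithine carrier (ENSSSCG00000009373, chromosome 11, 15494176 to 15551172), had the narrowest range of the 8 genes, 3.01-fold between arterial 1 at 1918 and arterial 4 at 5772. Its baseline values of 3089 and 4943 enclosed those of all 3 controls, which lay between 3249 and 3910.4, and the log2 fold change of controls against baseline was -0.18 (SE 0.48). The arterial group had 1918, 3157, 4514 and 5772, and the portal group had 2584, 3343, 3504 and 5165, both overlapping with baseline and controls. GLS2, the liver-type glutaminase (ENSSSCG00000000401, chromosome 5, 21806405 to 21820001), had normalized counts of 860.1 and 966 at baseline, against 1523, 1711 and 1187 in the controls, with a log2 fold change of 0.68 (SE 0.51, unadjusted p = 0.197, Benjamini-Hochberg adjusted p = 0.978, edgeR). The controls lay above both baseline biopsies. After infusion GLS2 was 1049, 1097, 922 and 1694 in the arterial group. In the portal group it was 1890.4, 714, 665 and 2202, which put both the lowest and the highest of the 13 biopsies in that group.

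The second comparison set all 11 reperfused biopsies, with and without cells, against the same 2 baseline biopsies, and so shares the baseline and the controls with the first. ARG1 lay above both baseline biopsies in 10 of 11 reperfused biopsies and NAGS lay below both in 10 of 11. The share of all genes with 10 of 11 was not counted. Among the other genes named here, CD14 and S100A12 also lay above both in 10, and AHR and NR3C1 lay below both in 10. For ARG1 the log2 fold change was 1.05 (SE 0.48, 95% interval 0.02 to 2.08), with an unadjusted p = 0.0464 and a Benjamini-Hochberg adjusted p = 0.860 in edgeR. For NAGS it was -1.02 (SE 0.47, 95% interval -2.02 to -0.03), with an unadjusted p = 0.0448 and an adjusted p = 0.860 in edgeR. Neither passed the threshold. An unadjusted p below 0.05 was thus seen for 1 of 8 genes in the higher direction, beside 2.85% of all tested genes, and for 1 of 8 in the lower direction, beside 1.93%. In the exact permutation test on log2 normalized counts, two-sided, ARG1 had p = 0.0513 and NAGS p = 0.0769, where the smallest p that 11 against 2 biopsies allow is 0.0256. With 1 biopsy left out at a time, the unadjusted edgeR p ranged from 0.0194 to 0.258 for ARG1 and from 0.00130 (without arterial 3) to 0.136 for NAGS, and the log2 fold changes ranged from 0.85 to 1.24 and from -1.29 to -0.94. Without the 4 biopsies that stood apart, the log2 fold change of ARG1 was 1.18 (unadjusted p = 0.00417, adjusted p = 0.356, edgeR) and that of NAGS was -0.85 (unadjusted p = 0.0788, adjusted p = 0.554, edgeR). In that reduced set 4.54% of all genes had an unadjusted p below 0.05 in the higher direction and 5.65% in the lower.

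The other 6 genes had wider overlap with baseline. OTC lay below both baseline biopsies in 7 of 11 reperfused biopsies and between them in 4 (log2 fold change -0.72, SE 0.44, -0.40 without the 4 biopsies that stood apart and -0.34 without baseline 2). ASS1 lay above both in 7 and between them in 4 (0.58, SE 0.46). Its log2 fold change was 0.30 without the 4 biopsies, 0.20 without baseline 1a and 1.02 without baseline 2. ASL lay above both in 8 and between them in 3, with a log2 fold change of 1.39 (SE 0.84) over all biopsies and 0.26 without the 4 that stood apart. GLS2 lay above both in 8 and below both in 2 (0.52, SE 0.44, and 0.22 without the 4). CPS1 lay above in 2, below in 6 and between in 3 (-0.32, SE 0.63, and 0.0040 without the 4), and SLC25A15 above in 2, below in 2 and between in 7 (-0.14, SE 0.41, and -0.0598 without the 4). None of the 8 genes was without overlap between the 11 and the 2 biopsies, as 3.3% of all genes were in the higher and 3.97% in the lower direction.

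**Figure D2:**
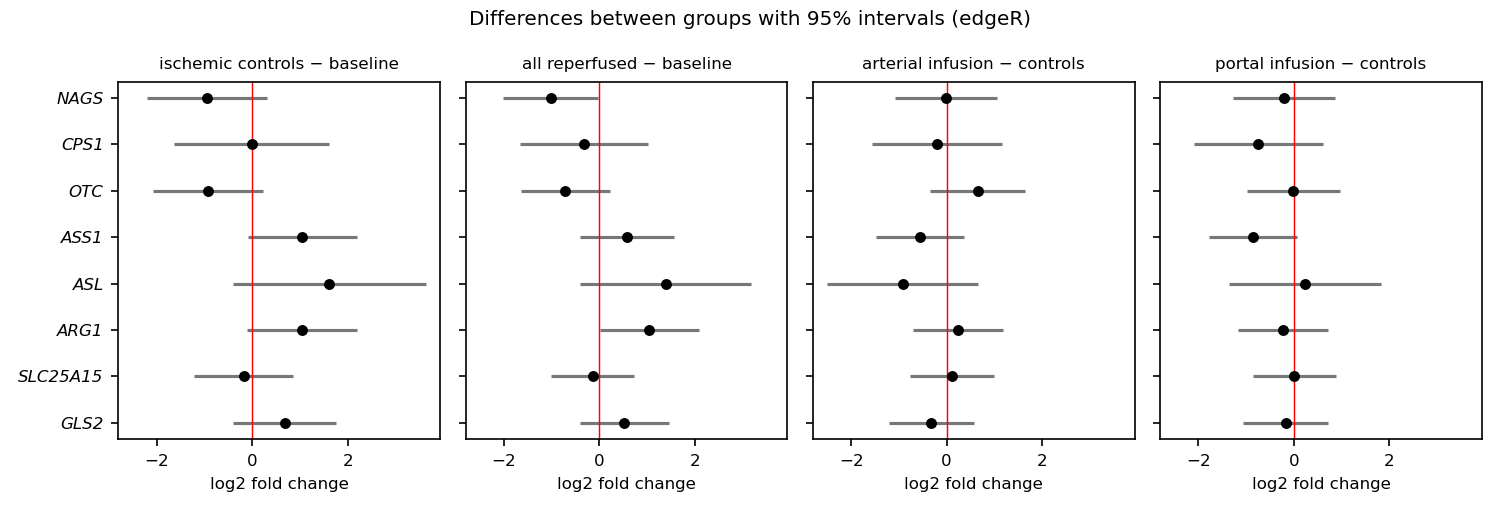
Log2 fold change (horizontal axis) of the 8 genes (vertical axis) in 4 comparisons, with 95% intervals from edgeR as bars and a red line at 0. The interval leaves out 0 for NAGS and ARG1 in all reperfused biopsies against baseline, at unadjusted p-values of 0.0448 and 0.0464, and includes 0 for all 8 genes in the other 3 panels.

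Infusion of BM-MSCs was then compared with the ischemic controls. In the 8 infused against the 3 control biopsies, 0 of the 8 genes had an unadjusted p below 0.05 in edgeR, beside 2.14% of all genes, or in DESeq2 (2.67% of all genes over all libraries and 2.22% over the compared groups). None of the 8 was without overlap between the groups, as 0.225% of all genes were in the higher and 0.34% in the lower direction. The largest difference relative to its error was that of ASS1, at -0.71 on the log2 scale (SE 0.37, 95% interval -1.50 to 0.08, unadjusted p = 0.0755, adjusted p = 1.00, edgeR), which was -0.21 without control 2 and -0.36 without the 4 biopsies that stood apart. Infused against control biopsies differed on the log2 scale by 0.01 for ARG1 (95% interval -0.82 to 0.84), -0.11 for NAGS (-1.05 to 0.83), 0.06 for SLC25A15 (-0.71 to 0.83) and -0.25 for GLS2 (-1.02 to 0.53). For these genes the intervals leave out a change of more than about 1 log2 unit. They were wider for CPS1 (-0.48, 95% interval -1.65 to 0.70) and ASL (-0.34, 95% interval -1.73 to 1.04), and the value of ASL was 1.03 without control 2. OTC differed by 0.32 (95% interval -0.56 to 1.20), and by 0.0648 without control 2. The difference without the 4 biopsies that stood apart was 0.37 for ARG1, 0.14 for NAGS, 0.13 for SLC25A15, -0.56 for GLS2 and 0.0262 for ASL. The summed level of the macrophage markers was lower in all infused biopsies (1167 to 1761 CPM) than in the controls (2041 to 3752 CPM), and that of the neutrophil markers overlapped (18.3 to 329 CPM against 45.3 to 385 CPM). Of the 8 macrophage markers, 7 had a log2 fold change below 0 and 1 lay above 0, at 1.46. An unadjusted edgeR p below 0.05 was seen for 4 in the lower direction, beside 1.41% of all genes. Only 1 marker was lower without overlap, beside 0.34% of all genes. Their part in these values was not tested.

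By route, 0 of the 8 genes had an unadjusted p below 0.05 after arterial infusion against controls, beside 1.57% of all genes in edgeR and 2.03% and 2.19% in DESeq2 over all and over the compared libraries. After portal infusion against controls it was again 0 of 8, beside 2.79% of all genes in edgeR and 3.69% and 2.9% in DESeq2. The adjusted p in edgeR was 1.00 for all 8 genes by either route. All 8 overlapped with the controls, whereas 1.61% and 1.57% of all genes were fully higher and lower after arterial, and 1.39% and 2.33% after portal infusion. OTC was 4102 ± 996 (SD, n = 4) after arterial and 2578 ± 1281 (SD, n = 4) after portal infusion, against 2573 ± 778 (SD, n = 3) in controls. OTC had a log2 fold change of 0.65 for arterial infusion (95% interval -0.34 to 1.64) and -0.01 for portal infusion (95% interval -0.99 to 0.96), each against controls, and the latter was 0.30 without the 4 biopsies that stood apart. ASS1 had -0.57 for arterial (95% interval -1.49 to 0.35) and -0.85 for portal infusion (95% interval -1.77 to 0.06), which were -0.0642 and -0.35 without control 2 and 0.0442 and -0.77 without the 4 biopsies. NAGS had -0.02 for arterial infusion, which was -0.83 without arterial 3, and -0.20 for portal infusion, and without the 4 biopsies these were 0.21 and 0.0668. ASL had -0.92 for arterial infusion, which was 0.45 without control 2. For portal infusion ASL had 0.24, which was 1.61 without control 2 and -0.68 without portal 1, so that 1 biopsy set its direction in both. It had 0.23 and -0.18 without the 4 biopsies. GLS2 had -0.32 for arterial infusion, which was -0.15 without the 4 biopsies, and -0.17 for portal infusion. Without the 4 biopsies that stood apart, which leaves 2 portal and 2 control biopsies, GLS2 had -0.97 for portal infusion (unadjusted p = 0.0141, adjusted p = 0.470, edgeR), and 9.35% of all genes then had an unadjusted p below 0.05 in either direction.

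The routes were also compared with each other, 4 against 4 biopsies. None of the 8 genes had an unadjusted p below 0.05 in edgeR, beside 2.4% of all genes, or in DESeq2, beside 3.6% and 2.48%. None was without overlap, as 0.91% of all genes were in the higher and 0.498% in the lower direction. Arterial against portal infusion gave a log2 fold change of 0.66 for OTC (SE 0.42, unadjusted p = 0.14, adjusted p = 1.00, edgeR), 0.55 for CPS1 (SE 0.59) and 0.47 for ARG1 (SE 0.41). These were 0.29, 0.49 and 0.12 without the 4 biopsies that stood apart. With single biopsies left out OTC ranged from 0.44 to 0.93, CPS1 from 0.25 to 0.87 and ARG1 from 0.25 to 0.70, each lowest without portal 1. It was -1.15 for ASL (SE 0.70, unadjusted p = 0.120, adjusted p = 1.00, edgeR), but 0.41 without the 4. Without these 4, which leaves 3 arterial and 2 portal biopsies, ASS1 (0.81, unadjusted p = 0.0324, adjusted p = 0.994, edgeR) and GLS2 (0.82, unadjusted p = 0.0219, adjusted p = 0.994, edgeR) were higher after arterial than after portal infusion at an unadjusted p below 0.05, as 4.45% of all genes differed in either direction. With all biopsies these differences were 0.29 and -0.15.

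ASL and CPS1 varied the most of the 8 genes, also between biopsies of the same group. ASL ranged 10.5-fold over the 13 biopsies and CPS1 ranged 8.92-fold, while the other 6 genes ranged between 3.01-fold and 4.85-fold. The SD within the reperfused groups, with baseline left out, was 1.21 on the log2 CPM scale for ASL and 1.05 for CPS1. Over the 3501 genes of at least 5 log2 CPM the median was 0.62, and ASL lay at the 92.7th and CPS1 at the 87.7th percentile. The other 6 genes lay between the 29.1st percentile (ASS1) and the 58.0th percentile (NAGS).

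ASL and CPS1, a cytosolic and a mitochondrial enzyme of the same cycle, were mostly high in different biopsies. They lay on the same side of their own means in 1 of 13 biopsies, and ASL and OTC likewise in 1 of 13, whereas CPS1 and OTC did in 11 of 13. The log2 ratio of ASL to CPS1 counts was 1.88 in portal 1, -0.09 in control 2, -0.34 in arterial 1 and -1.17 in portal 4. In the other 9 biopsies it lay between -4.65 (control 1) and -2.34 (control 3), with both baseline biopsies at -3.19 and -4.14. The 4 biopsies with the highest ratio were those that stood apart on the first principal component. Among the 11 reperfused biopsies they held ranks 1 to 4 for ASL and ranks 7, 8, 10 and 11 for CPS1. For OTC they held ranks 8 to 11. ASS1 was mixed, with rank 1 in control 2 and 3 in portal 1, but 7 in portal 4 and 9 in arterial 1. Such ranks were not particular to the cycle. In these 4 biopsies APOA1 and CEBPB also held ranks 1 to 4, and TF and AHSG held ranks 8 to 11. The share of all tested genes with such ranks was not counted.

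**Figure D3:**
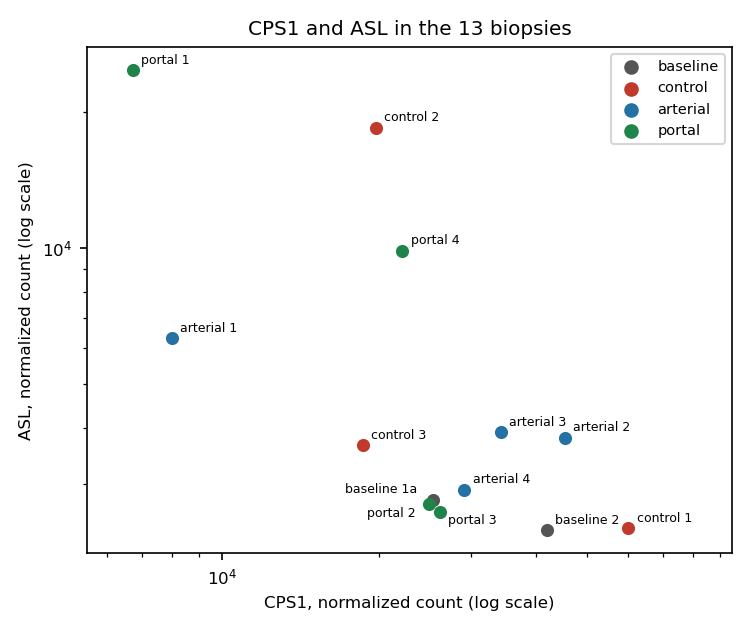
Normalized counts of CPS1 (horizontal axis, log scale) and ASL (vertical axis, log scale) in the 13 biopsies, coloured by group. Portal 1, control 2, portal 4 and arterial 1 have the 4 highest ASL counts (6309 to 24785) at CPS1 counts of 6732 to 22139, and the other 9 biopsies have at most 3918 for ASL.

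Beside the lower hepatocyte marker sum, other measures overlapped between these 4 biopsies and the rest. Control 2, portal 1 and portal 4 had the smallest library totals of the 13, at 18975413, 20563848 and 21444917 counts. Arterial 1 had 30260803, and the other 9 lay between 24339939 and 35949178. The number of genes with at least 1 count was 13581 in portal 1, 14264 in portal 4, 15460 in arterial 1 and 16993 in control 2, and lay between 15831 and 20282 in the other 9. The summed level of the 6 neutrophil markers found of 9 listed was between 84.5 and 385 CPM in these 4 biopsies and between 18.3 and 180.4 CPM in the other 9, with MPO at 0 in 9 of 13 biopsies and ELANE at 0 in portal 1 and portal 4. Their part in the levels of ASL and CPS1 was not tested.

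The genes around the cycle were described from a list of 28 pathway partners, of which 26 were found and 24 were tested. In controls against baseline none passed the adjusted threshold in edgeR or DESeq2, and 1 of 24 had an unadjusted p below 0.05 in the higher direction (3.16% of all genes) and 0 in the lower (1.21%). The median log2 fold change was 0.02. That 1 gene was GOT1, the cytosolic aspartate aminotransferase, with 906 and 745 at baseline, against 2297, 1392 and 1476 in the controls (log2 fold change 1.07, SE 0.49, unadjusted p = 0.0462, adjusted p = 0.978, edgeR). GOT1 lay above both baseline biopsies in all 11 reperfused biopsies. It was the only 1 of the 24 to do so, beside 3.3% of all genes, and 0 lay below in all 11, beside 3.97%. GATM, which uses arginine to make the precursor of creatine, differed by more between the baseline biopsies (1331 and 31524) than between any groups. GPT2, the mitochondrial alanine aminotransferase, was 1433 and 5759 at baseline, against 1726, 257 and 652 in the controls (log2 fold change -1.99, SE 1.11).

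In the biopsies that stood apart, some of the 24 tested partners ranked as ASL did, some ranked as CPS1 did, and others were mixed. GATM, for example, held ranks 3, 8, 9 and 10 of the 11 reperfused biopsies. CA5A, SLC25A13 and ARG2 were picked from the 24 after their values were seen. The share of all genes with such ranks was not counted. CA5A, the mitochondrial carbonic anhydrase that supplies bicarbonate to CPS1, held ranks 1 to 4 of 11 in those 4 biopsies, at 397 to 623. SLC7A2, a transporter of cationic amino acids, held ranks 1 to 4 as well, at 13843 to 23817 against 3274 to 9531 in the other 9. SLC25A13, the aspartate and glutamate carrier citrin that feeds ASS1, held ranks 8 to 11, from 122 in portal 1 to 468 in arterial 1, while the other 9 biopsies had 526 to 1471. ARG2, the mitochondrial arginase, had a count of 0 in portal 1, which allows up to 3 counts, and 61.3 to 102 in the other 3, while the other 9 biopsies had 98.5 (arterial 4) to 619.

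**Figure D4:**
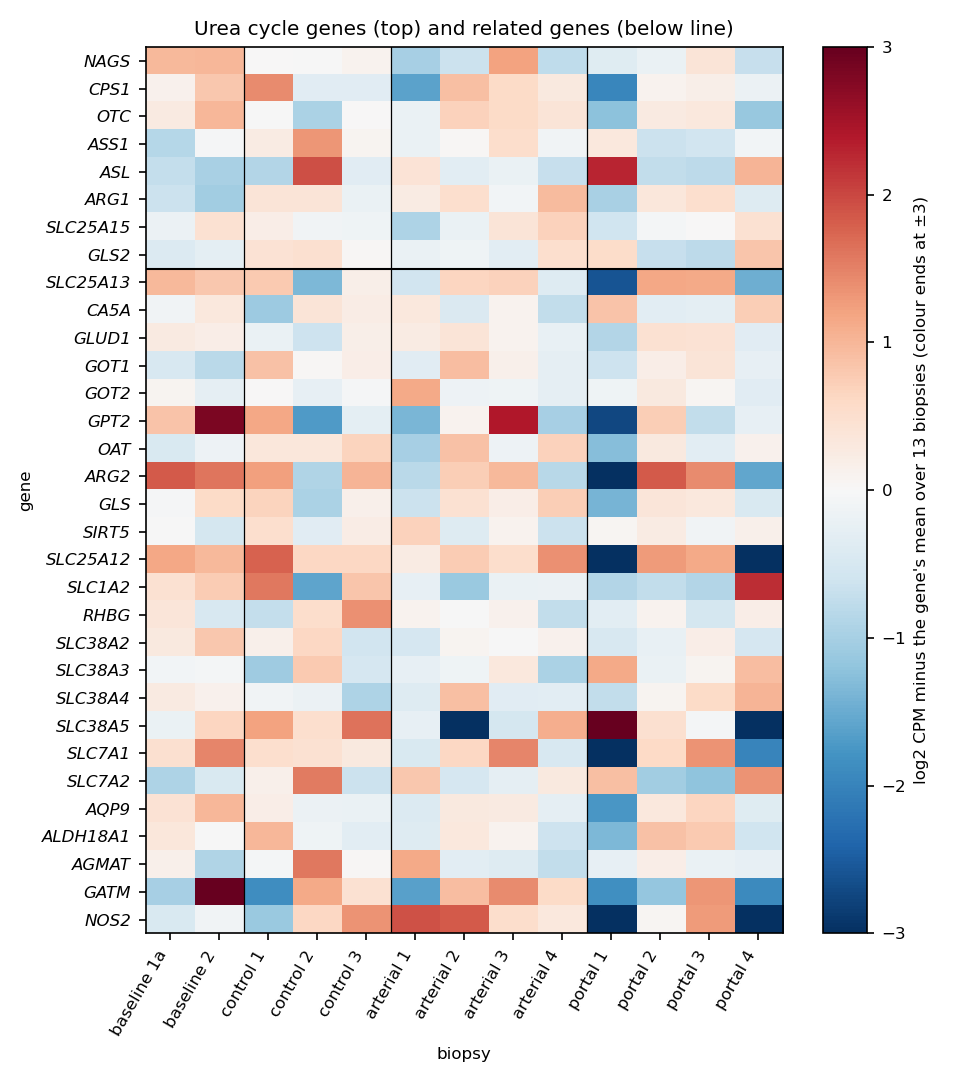
Log2 CPM minus the mean of the gene over the 13 biopsies (colour, ending at ±3) for the 8 urea cycle genes (above the black line) and their pathway partners (below), by biopsy in group order. ASL is high where SLC25A13 and ARG2 are low, in control 2, portal 1 and portal 4, and NAGS is high in the baseline biopsies and arterial 3.

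Amino acid breakdown, which supplies the ammonia, was described from 22 tested genes. In controls against baseline, 2 of 22 had an unadjusted edgeR p below 0.05 in the higher direction (3.16% of all genes) and 0 in the lower (1.21%), with a median log2 fold change of -0.15, and none passed the adjusted threshold in edgeR. They were HGD (log2 fold change 1.83, SE 0.67, unadjusted p = 0.0150, adjusted p = 0.978, edgeR) and SDS (2.75, SE 1.28, unadjusted p = 0.0480, adjusted p = 0.978, edgeR), which act in tyrosine and in serine breakdown. SDS passed in DESeq2 over the 5 libraries (adjusted p = 0.0299). HGD was 975 and 719 at baseline and between 1066 and 5517 in the reperfused biopsies, above baseline in all 11. HPD, the enzyme of an earlier step of tyrosine breakdown, was above baseline in all 11 as well, at 7119 or more against 6644 and 6720. AMDHD1, which acts in histidine breakdown, was below baseline in all 11, between 68.0 and 558.6 against 999.7 and 889. Of the 22 genes 2 thus lay above and 1 below baseline without overlap, beside 3.3% and 3.97% of all genes. SDS was 1295 and 602 at baseline, against 4179, 14068 and 1595 in the controls, and without the 4 biopsies that stood apart its log2 fold change was 1.62.

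Of 14 transcription factors and coactivators that act on hepatocyte metabolism, 0 had an unadjusted edgeR p below 0.05 in controls against baseline, beside 4.37% of all genes, and 0 passed the adjusted threshold in edgeR or DESeq2. The nearest were NR3C1, the glucocorticoid receptor, with 1089.9 and 1119 at baseline, against 678, 389 and 665 in the controls (log2 fold change -0.93, SE 0.44, unadjusted p = 0.0511, adjusted p = 0.978, edgeR). CEBPB, a factor induced in stressed hepatocytes, was 7277 and 4697 at baseline, against 13316, 25422 and 11861 in the controls (1.47, SE 0.74, unadjusted p = 0.0666, adjusted p = 0.978, edgeR). Both sets of controls lay outside the baseline values, NR3C1 below and CEBPB above. Of the 14 genes, 1 was fully higher in the controls, beside 14.8% of all genes, and 3 were fully lower, beside 16.3%.

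The planned comparison of the periportal urea cycle genes with pericentral GLUL could not be made. As a description chosen after the data were seen, 17 other genes known from pericentral hepatocytes were used in its place. In controls against baseline 0 of 17 had an unadjusted edgeR p below 0.05 in the higher (3.16% of all genes) and 2 in the lower direction (1.21%), with a median log2 fold change of -0.33, and none passed the adjusted threshold in edgeR. These 2 were AHR, a ligand-activated transcription factor (-1.62, SE 0.55, unadjusted p = 0.00977, adjusted p = 0.978, edgeR), and TBX3, a target of Wnt signalling in pericentral hepatocytes (-1.82, SE 0.63, unadjusted p = 0.0109, adjusted p = 0.978, edgeR). TBX3 was 745 and 858 at baseline and between 114 and 455 in the reperfused biopsies. AXIN2, another Wnt target, was 255 and 316 at baseline and between 44.6 and 213 in the reperfused biopsies. Both lay below baseline in all 11 reperfused biopsies, the only 2 of 17 to do so, beside 3.97% of all genes, with log2 fold changes of all reperfused against baseline of -1.52 for TBX3 (SE 0.48, unadjusted p = 0.00627, adjusted p = 0.860, edgeR) and -1.55 for AXIN2 (SE 0.53, unadjusted p = 0.0106, adjusted p = 0.860, edgeR). Without the 4 biopsies that stood apart these were -1.18 and -1.43. The other Wnt targets of the list, LGR5, ZNRF3, RNF43 and NOTUM, did not separate. LGR5 and ZNRF3 lay below both baseline biopsies in 6 of 11 reperfused biopsies, and RNF43 and NOTUM in 5. NOTUM lay above both in another 5 and RNF43 in 1. CYP2E1, an abundant pericentral enzyme, had no such separation (log2 fold change -0.18, SE 0.53, and -0.0202 without the 4). Of 13 other periportal genes, 2 had an unadjusted edgeR p below 0.05 in the higher direction in controls against baseline, GOT1 and SDS again, beside 3.16% of all genes, 0 had one in the lower direction, and the median was -0.40.

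The mean of the mean-centred log2 CPM of the 8 urea cycle genes, minus that of the 17 pericentral genes, was -0.65 and -0.47 in the baseline biopsies. It was 0.44, 0.34 and -0.49 in controls 1 to 3. After arterial infusion it lay between -0.14 and 0.31, and after portal infusion between -0.24 and 0.44. All reperfused biopsies but control 3 lay above both baseline biopsies. The mean of the 8 urea cycle genes alone was -0.18 and 0.11 at baseline, and reperfused biopsies lay on both sides of it, from -0.43 (arterial 1) to 0.34 (arterial 3). The mean of the 17 pericentral genes alone was 0.47 and 0.58 at baseline and between -0.70 and 0.40 in the reperfused biopsies. This mean weighs all genes alike, and 2 of the genes were at 0 in arterial 1, 2 in portal 1 and 3 in portal 4. The summed level of the pericentral genes did not separate in this way. It was 3031 and 2804 CPM at baseline, while control 3 (3487 CPM) and arterial 3 (3205 CPM) lay above both and portal 3 (2898 CPM) lay between them.

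The genes whose mean-centred log2 CPM over the 13 biopsies lay nearest to those of the urea cycle genes were sought among 3195 genes with a symbol. For CPS1 they were LNX2, SLC30A5 and PPP1R15B, with root mean square differences of 0.36, 0.37 and 0.37 log2 units. For ASL they were FBXW5, MRPS2 and PQBP1, at 0.26, 0.28 and 0.30. For NAGS they were RIPK1 (0.33), EFCAB7 (0.36) and PDCD11 (0.37), and for ARG1 they were CLNS1A (0.34), YWHAZ (0.36) and RAB11A (0.36). Between urea cycle genes the smallest such difference was 0.48, between ASS1 and GLS2, and the largest was 1.80, between CPS1 and ASL. None of the 12 nearest genes was a gene of the cycle. The 3195 genes searched far outnumber the 8 urea cycle genes, so this cannot tell whether the 8 vary together. The difference also grows with the spread of a gene, and CPS1 and ASL had the widest spread of the 8.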

How the data were processed

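Bulk RNA was measured in 13 pig liver libraries. The authors used HISAT2 and the Sscrofa11.1 assembly for mapping and FeatureCounts with Ensembl genes for counting, and the deposited values are raw counts with no normalization. A symbol was given for 17759 of 35670 genes. Tool versions and the handling of reads with several matches are not given in the sources used here. The libraries were non-directional, so that reads of a gene and an overlapping antisense gene cannot be told apart. For RNA extraction the sample labels name another kit than the study's sequencing methods. Groups and replicate numbers came from the labels, and the number of unmapped columns was 0. Libraries of a group never agreed within sampling noise (smallest chi-square per gene 79.8).

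Tests used R 4.3.3 and edgeR 4.0.16 (filterByExpr, TMM, quasi-likelihood test, Benjamini-Hochberg adjustment over 16481 genes, threshold 0.05), with all 13 libraries in 1 fit and a prior count of 2 for log2 CPM. Normalized counts used DESeq2 1.42.0 size factors. Exact permutation tests were two-sided, on log2(normalized count + 1). The test was tried on simulated data first. DESeq2, other scaling, filter, block and left-out libraries were alternatives. Positions are those of RefSeq for Sscrofa11.1, matched by symbol.

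The genes and lists were chosen with earlier results of these data known. All urea cycle genes are named. Of the other lists, genes named are those with the smallest unadjusted p in controls against baseline, and the 3 genes most like CPS1. The same for ASL, NAGS and ARG1, and all other named genes (CA5A, SLC25A13, ARG2, CYP2E1, LGR5, ZNRF3, RNF43, NOTUM, AMDHD1, APOB, FGB, FGG), were chosen after their values were seen. SLC25A2, GPT, PRODH and SLCO1B3 were not found by symbol. Counts carry at least the counting error of their reads, which are not unique molecules.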

Additional observations from a re-analysis of the deposited data

Results flagged for a closer look

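The normalized count of NAGS in arterial 3, 12129, lay far from the other biopsies of the arterial group (2797, 3525 and 3228). The gap to the nearest of them was 0.922 of the range of the group, above the critical value of Dixon's test at 95% for 4 samples. It was the only such biopsy among 8 genes in the arterial and portal groups, which are 16 groups of 4, and chance alone gives about 1 in 20. Groups of 2 and 3 biopsies were not tested in this way. Arterial 3 was not among the 4 biopsies that stood apart on the first principal component, and its CPS1 and OTC lay within the range of the other arterial biopsies (34182 and 4456), while its ASS1 was the highest of the 4 (43017). Without it, the log2 fold change of NAGS in arterial infusion against controls went from -0.02 to -0.83.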

How the results depend on the processing

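No urea cycle gene passed the adjusted threshold under any alternative, and the log2 fold change kept its direction in 876 of 944 alternatives. It turned in 26 cases other than single left-out biopsies. With the replicate number as a block these were CPS1 in controls against baseline (0.17), ARG1 (-0.0541) and SLC25A15 (-0.25) in all infused against controls, SLC25A15 in arterial (-0.23) and portal infusion (-0.28) against controls, and NAGS in arterial against portal infusion (-0.0180). Without the 4 biopsies that stood apart they were CPS1 against baseline in controls (0.26) and in all reperfused (0.0040), ASL (0.0262) and NAGS (0.14) in all infused, ASL (0.23), NAGS (0.21) and ASS1 (0.0442) in arterial and ASL (-0.18), NAGS (0.0668), OTC (0.30), ARG1 (0.32) and SLC25A15 (-0.0579) in portal infusion against controls, and ASL (0.41) and GLS2 (0.82) between the routes. DESeq2 turned CPS1 in controls against baseline (0.0197, compared groups) and OTC in portal infusion against controls (0.0032 with the compared groups, 0.0026 with all libraries, 0.0026 with RLE scaling in edgeR). Without a filter, ARG1 in all infused (-0.0067) and SLC25A15 in portal infusion (-0.0051) turned. The cause was not tested.

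With single biopsies left out, the direction turned in 42 cases. CPS1 ranged from -0.84 to 0.36 in controls and -0.64 to 0.0347 in all reperfused against baseline, and from -0.76 to 0.36 in all infused, -0.47 to 0.63 in arterial and -1.04 to 0.0869 in portal infusion against controls. SLC25A15 ranged from -0.47 to 0.15, -0.44 to 0.19, -0.0686 to 0.17, -0.15 to 0.33 and -0.18 to 0.17 in the same order, and from -0.16 to 0.32 between the routes. ASL ranged from -0.80 to 1.03 in all infused, -1.34 to 0.45 in arterial and -0.68 to 1.61 in portal infusion, ARG1 from -0.19 to 0.12 in all infused, NAGS from -0.83 to 0.20 in arterial infusion and -0.63 to 0.42 between the routes, OTC from -0.28 to 0.21 and GLS2 from -0.49 to 0.0392 in portal infusion, and GLS2 from -0.36 to 0.17 between the routes.

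edgeR called 0 genes in all 6 comparisons, also with RLE scaling, the block or any single biopsy left out. DESeq2 over all libraries called 5 genes in controls and 14 in all reperfused against baseline, 1 in all infused, 0 in arterial and 4 in portal infusion against controls, and 1 between the routes. Over the compared groups it called 166 in controls against baseline, 3 in portal infusion and 0 in the others. Without a filter edgeR called 30, 28, 19, 11, 14 and 5, and without the 4 biopsies 1 in all infused and 1 in arterial infusion. Scaling moved the median of all genes by at most 0.03.

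The main fit did not pair same-numbered biopsies. Of 16 such pairs, 5 had a correlation of deviations above 0.1, and 5 of 13 biopsies correlated best with their own number. With so few biopsies per group, these values cannot tell whether biopsies came from the same animal. For all reperfused against baseline, a fit of the compared groups is the fit of all libraries and was not run again. The difference from GLUL and its alternatives were not run. With 2 baseline biopsies, intervals against baseline span more than 1 log2 unit.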
